A study of Homo sapiens with 4 samples.

Results

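The OAS family consists here of OAS1, OAS2, OAS3 and OASL, which were picked by gene symbol from the 39323 genes of the deposited tables. All 4 members had a mean of at least 1 TPM (transcript abundance per length, scaled to the same total in every library) over the libraries and are therefore among the 12985 genes tested. They were picked partly because earlier results of these data placed OASL among the largest falls, so the falls below are a description of the choice and carry no test. RNA was sequenced from 2 established lines, RD and JR1, of fusion-negative rhabdomyosarcoma, a childhood tumor of the skeletal muscle lineage. Each line was infected with a pLKO.1-puro lentivirus made in HEK293T cells and selected with puromycin, so controls and depleted cells share the vector and the drug. The controls expressed a scrambled hairpin (shSCR, labelled as genotype WT) and the depleted cells 1 hairpin against SKP2 (shSKP2.2, named shSKP2 from here on and labelled as SKP2 knockdown). Each line and condition gave 1 library of poly-A RNA, 4 in all, and untransduced cells or a second SKP2 hairpin were not analysed here. SKP2 is the substrate-binding subunit of an SCF ubiquitin ligase, and the comparison asks how expression differs in cells depleted of it. With 1 hairpin per condition, the loss of SKP2, the hairpin sequence and the separate infection cannot be told apart in either line.

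OAS enzymes are sensors of double-stranded RNA. Once bound to it they join ATP into chains of adenylates with 2′-5′ linkages, a second messenger (2-5A) that leads to the decay of cellular and viral RNA. OAS1 carries a single catalytic unit, while OAS2 and OAS3 grew by duplication of that unit, and in OAS3 only the last copy is active. OASL is the exception of the family: human OASL makes no 2′-5′ adenylates, carries ubiquitin-like domains at its end and enhances signalling by RIG-I. All members are known as interferon-stimulated genes, which are switched on through sequence elements bound by ISGF3, which contains STAT2 and IRF9, or by other IRF factors.

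The members lie on chromosome 12 (GRCh38, coordinates of the deposited tables). OAS1 (bases 112906956 to 112933219), OAS3 (112938463 to 112973251) and OAS2 (112978466 to 113011723) stand side by side on the plus strand, and OASL (121018882 to 121039242) lies apart from them on the minus strand. In GENCODE release 44 the canonical transcripts have 6 exons for OAS1, 10 for OAS2, 16 for OAS3 and 6 for OASL. These transcripts share 0 words of 31 bases between any pair of members, so identical stretches of that length do not link them. A long noncoding RNA gene, ENSG00000257452, overlaps OAS1, OAS3 and OAS2 on the minus strand. The library kit keeps the strand, but whether RSEM used it is not given in the sources used here. Without it, reads from exons of this gene that overlap exons of the 3 OAS genes cannot be told apart. The overlap was read from whole genes, and that of exons was not examined.

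The promoters of OAS1 and OAS3 could be read from RefSeq (GRCh38.p14, 250 bases before to 50 after the start of each gene), 2 of the 4 members, and those of OAS2 and OASL were not used here. They are shown because interferon-stimulated genes are commonly driven by repeats of GAAA. The motif GAAANNGAAA, searched on both strands, was found in 3.57% of 35116 promoters, and the more compact GAAANGAAA in 3.12%. The 2 motifs were chosen after the promoters of OAS1 and OAS3 had been seen. In the windows that follow, each 30 bases long and on the plus strand, capitals mark the motif.
OAS1, GAAANGAAA, chr12:112906935-112906964: cccttctgagGAAACGAAAccaacagcagt
OAS3, GAAANNGAAA, chr12:112938321-112938350: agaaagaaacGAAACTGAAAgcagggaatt
OAS3, GAAANNGAAA, chr12:112938452-112938481: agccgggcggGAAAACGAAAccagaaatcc
Relative to the RefSeq start of the gene, which is base 112906962 for OAS1 and 112938474 for OAS3 and differs from that of the deposited tables, the OAS1 motif begins at -17 and the OAS3 motifs at -143 and -12, and a GAAANGAAA that begins at -148 overlaps the first of them. A match of letters describes the sequence and does not show that a factor binds there.

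The 4 libraries sum to the same total TPM, and since TPM keep no read numbers the depth of each is unknown and no counting error can be given. Within a line, shSKP2 was set over shSCR as the log2 ratio of TPM + 1, which understates the change of low genes, and a gene was called when its change reached 1 (2-fold). With 1 library per group no value within a line has a replicate check or an error. A fit of both lines with line as a block was not run, since the members were picked on this contrast, and no p-value is given. SKP2 itself went in RD from 92.84 to 7.40 TPM and in JR1 from 46.47 to 2.72 TPM. Short structural RNA genes had 58.6% of all TPM in RD shSCR, 69.0% in RD shSKP2, 66.5% in JR1 shSCR and 72.1% in JR1 shSKP2. The median over tested genes lay at -0.27 (RD) and -0.21 (JR1), and at 0.12 and 0.01 once these genes were removed and the TPM rescaled. The part of this shift in the changes below was not tested, and each call of an OAS gene that it alters is given on both scales. As deposited, RD had 140 rises and 957 falls, and JR1 had 231 and 1175. Relative to the median of the tested genes they were 272 and 458 in RD and 388 and 710 in JR1, and with the structural RNA genes removed, over the 15228 genes that then reached the minimum, 677 and 528 in RD and 747 and 1144 in JR1. Over the 12872 genes tested on both scales the latter were 463 and 450 in RD and 539 and 968 in JR1. Of the 9 myoblast markers examined 7 reached 1 TPM in some library and MYF5 was listed at 0 in every library. The summed TPM of the 9 was 377 in RD shSCR, 526 in RD shSKP2, 517 in JR1 shSCR and 727 in JR1 shSKP2. Most of this sum was CHRNA1, a muscle acetylcholine receptor gene, while PAX7, a gene of muscle stem cells, fell in RD from 10.75 to 3.36 TPM and in JR1 from 4.84 to 1.16 TPM. A list of 5 fibroblast markers summed to 307 and 77.62 TPM in RD shSCR and shSKP2 and to 396 and 72.91 TPM in JR1. Nearly all of it was COL1A1, a collagen gene. The other markers of this list, COL1A2, LUM, PDGFRA and DCN, were higher with shSKP2 in RD, at no more than 0.28 TPM. In JR1 COL1A2, LUM and DCN were lower and PDGFRA was higher. The part of these lists in the changes of the OAS family was not tested. A list of 5 epithelial markers, led by KRT18, summed to 209 and 171 TPM in RD and to 84.03 and 88.54 TPM in JR1. Leukocyte, dendritic and endothelial markers, 17 genes in all, reached 1 TPM for CD68 only, whose highest value was 2.87 TPM, and PTPRC did not exceed 0.01 TPM.

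OASL, the member without enzyme activity, was the most abundant member in both controls and the most changed. It was at 131.51 TPM in RD shSCR and 1.46 TPM in RD shSKP2, and at 83.98 TPM in JR1 shSCR and 1.41 TPM in JR1 shSKP2. Both control libraries stand far above both depleted libraries, which lie close together. The shSCR value was 90.1-fold the shSKP2 value in RD and 59.6-fold in JR1, with a log2 change of -5.75 (RD) and -5.14 (JR1). Among all tested genes, structural RNA genes included, OASL was at position 3 from the largest fall in RD and 6 in JR1. Its level stood at percentile 96.3 of tested genes in RD shSCR and 94.6 in JR1 shSCR, and at percentile 7.72 and 10.6 in the depleted cells.

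OAS2, the enzyme with a duplicated unit, had the next largest change. It was at 23.45 TPM in RD shSCR, 1.71 TPM in RD shSKP2, 30.87 TPM in JR1 shSCR and 1.41 TPM in JR1 shSKP2. The controls again lie apart from the depleted cells, 13.7-fold in RD and 21.9-fold in JR1. On the log2 scale its change was -3.17 (RD) and -3.73 (JR1), at positions 19 and 24 from the largest fall.

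OAS1, the single-unit enzyme, started at nearly the same level in both lines. It was at 22.40 TPM in RD shSCR and 22.35 TPM in JR1 shSCR, against 5.57 TPM in RD shSKP2 and 4.36 TPM in JR1 shSKP2. The controls were 4.02-fold and 5.13-fold above the depleted cells, log2 changes of -1.83 (RD) and -2.12 (JR1). OAS1 was at positions 125 (RD) and 102 (JR1) from the largest fall.

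OAS3, the longest of the enzymes, which prefers long double-stranded RNA, changed least in RD. It was at 18.84 TPM in RD shSCR, 7.40 TPM in RD shSKP2, 24.75 TPM in JR1 shSCR and 4.31 TPM in JR1 shSKP2. Both controls stand above both depleted libraries, with RD shSKP2 the nearest to them. The control was 2.55-fold the depleted value in RD and 5.74-fold in JR1, and the log2 changes were -1.24 and -2.28. From the largest fall OAS3 was at positions 493 (RD) and 81 (JR1). The call in RD depended on the scaling, with -0.97 relative to the median of the tested genes and -0.90 after the structural RNA genes were removed.

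**Figure D1:**
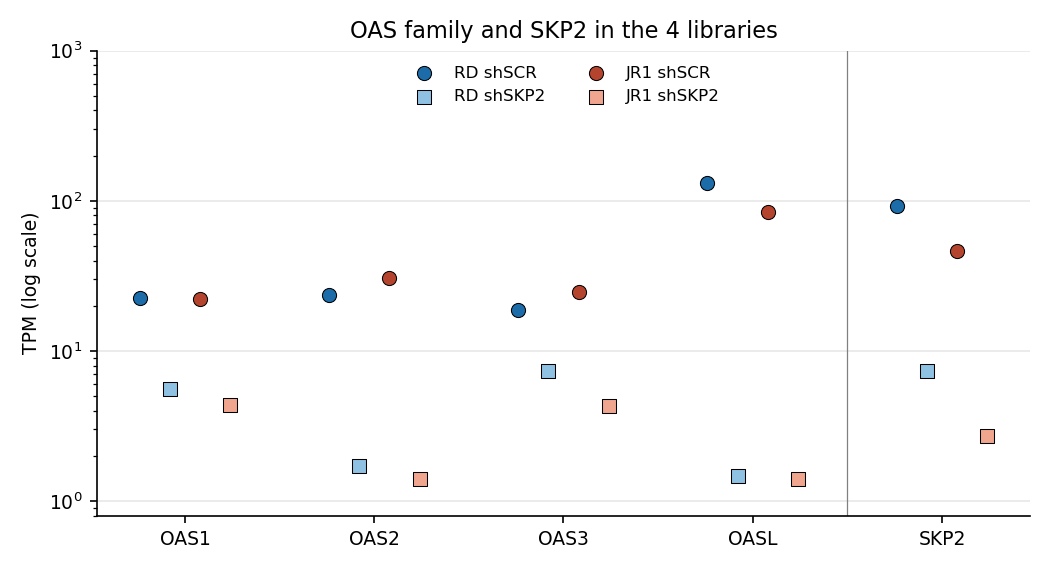
TPM (log axis) of the 4 OAS family genes and SKP2 in the 4 libraries, 1 point per library with circles for shSCR and squares for shSKP2. OASL goes from 131.51 and 83.98 TPM in the controls to 1.46 and 1.41 TPM.

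All 4 members were called lower in RD and all 4 in JR1, where 7.37% and 9.05% of tested genes were, and 4.79% were called lower in both lines. Set against the median of the tested genes the members called lower were 3 in RD and 4 in JR1, against 3.53% and 5.47% of tested genes. With the structural RNA genes removed they were again 3 and 4, against 3.47% and 7.51%. For each member both shSKP2 values lay below both shSCR values, as they did for 38.8% of tested genes. These shares are given for reference only, since the members were picked with the falls known. The family median was -2.50 (RD) and -3.00 (JR1), against the medians of all tested genes given above, and -1.83 and -2.28 without OASL.

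Summed over the family, the TPM went from 196.2 in RD shSCR to 16.14 in RD shSKP2 and from 161.95 in JR1 shSCR to 11.49 in JR1 shSKP2. The control sums were 12.2-fold and 14.1-fold those of the depleted cells. The make-up of the family differed as well. OASL was 67.0% of the sum in RD shSCR and 51.9% in JR1 shSCR, and 9.05% and 12.3% in the depleted cells. OAS1 and OAS3 together made up most of what was left, at 34.5% and 45.8% in RD shSKP2 and 37.9% and 37.5% in JR1 shSKP2. The 3 enzymes alone summed to 64.69 TPM in RD shSCR, 14.68 TPM in RD shSKP2, 77.97 TPM in JR1 shSCR and 10.08 TPM in JR1 shSKP2. In bulk RNA a smaller share of expressing cells and less RNA per cell cannot be told apart.

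**Figure D2:**
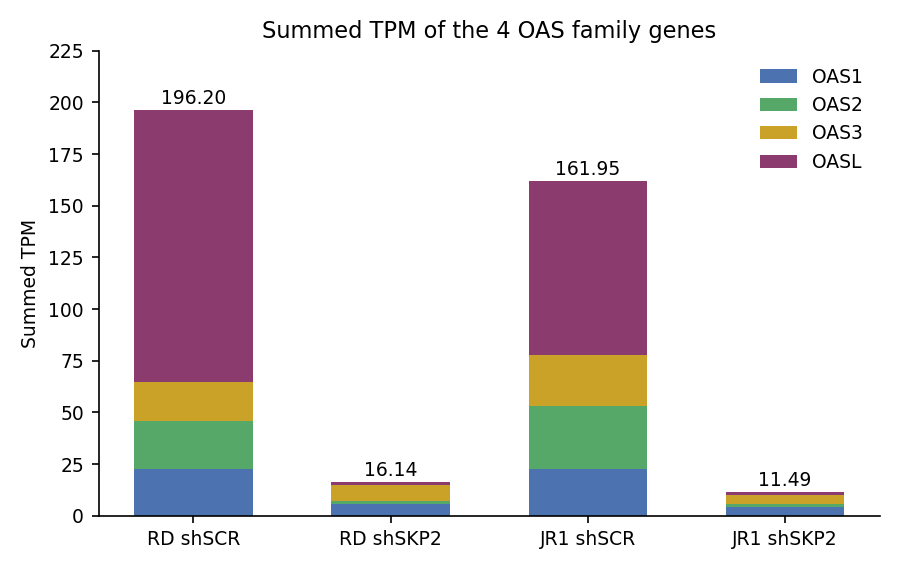
Summed TPM (linear axis) of OAS1, OAS2, OAS3 and OASL in each library, with the sum above each bar and 1 library per bar. OASL makes up 67.0% of the bar in RD shSCR and 9.05% in RD shSKP2.

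In order of level, TPM being per transcript length, OASL led both controls, followed in RD by OAS2, OAS1 and OAS3 and in JR1 by OAS2, OAS3 and OAS1. With shSKP2 the order was OAS3, OAS1, OAS2 and OASL in RD, and OAS1, OAS3 and then OAS2 and OASL at an equal 1.41 TPM in JR1. Without replicates it cannot be said which neighbours in these orders differ beyond their spread. The ratio of OASL to OAS1 was 5.87 in RD shSCR and 3.76 in JR1 shSCR, and 0.262 and 0.323 in the depleted cells.

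The lines were also compared within each condition, with RD over JR1 on the same log2 scale. These comparisons use the same 4 libraries as the changes above and are no separate evidence. In shSCR, OASL was higher in RD (0.64), OAS2 and OAS3 were lower (-0.38 for each) and OAS1 stood at 0.00. None reached the limit of 1, which 6.5% of tested genes passed upward and 3.45% downward. In shSKP2 the values were 0.29 for OAS1, 0.17 for OAS2, 0.66 for OAS3 and 0.03 for OASL, again within the limit, which 5.39% of tested genes passed upward and 2.7% downward. The median of all tested genes was 0.23 in shSCR and 0.17 in shSKP2, so relative to it OAS1 was at -0.23 in the controls and OASL at -0.14 in the depleted cells. The fall of OAS3 was smaller in RD than in JR1 by 1.04 on the log2 scale, that of OAS2 by 0.55 and that of OAS1 by 0.29, while the fall of OASL was larger in RD (difference -0.61). These differences between the lines were not tested.

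The 3 other genes of the 2-5A pathway that were examined did not reach the limit. ABCE1, an ATP-binding protein known for ribosome recycling and first described as an inhibitor in this pathway, went in RD from 32.20 to 29.38 TPM and in JR1 from 32.79 to 28.46 TPM. PDE12, a phosphodiesterase that degrades 2′-5′ adenylates, went in RD from 11.18 to 10.30 TPM and in JR1 from 9.04 to 8.21 TPM. The directions of ABCE1 and PDE12 flip from lower to higher, in RD and in JR1, relative to the median of the tested genes and after removal of the structural RNA genes. AKAP7, an anchoring protein of protein kinase A with a domain that can degrade such adenylates, went in RD from 2.85 to 1.61 TPM and in JR1 from 1.57 to 0.80 TPM. The changes of AKAP7 were -0.56 and -0.51.

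Interferons induce the family, and most of the interferon genes examined here were listed at or near 0 TPM. Of 10 type I and type III interferon genes, 7 were at 0 in every library and IFNL1 alone reached 1 TPM. IFNL1 was at 1.11 TPM in RD shSCR and 2.35 TPM in JR1 shSCR, against 0.08 and 0 TPM with shSKP2, and with a mean under 1 TPM it was not tested. IFNB1 did not exceed 0.08 TPM. IFNL1 and IFNB1 were singled out after their values had been seen.

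Of 16 genes of interferon receptors, kinases, transcription factors and feedback, 14 were tested. The receptor chains of type I interferon were not called. IFNAR1 went in RD from 7.15 to 6.61 TPM and in JR1 from 9.20 to 11.54 TPM, and IFNAR2 from 2.95 to 3.05 TPM and from 4.90 to 5.79 TPM. IL10RB, a chain of the type III interferon receptor, stood at -0.73 (RD) and -0.72 (JR1). The receptor kinases stood at -0.38 and -0.60 (JAK1) and at -0.49 and -0.32 (TYK2).

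STAT2 and IRF9 belong to ISGF3, the factor that interferon activates. STAT2 fell in RD from 39.59 to 13.94 TPM and in JR1 from 57.96 to 16.63 TPM. With 1 TPM added it was the 1 gene of this list called in both lines. The change of IRF9 was -0.94 (RD) and -1.52 (JR1). Among the other IRF factors the changes were -0.96 and -1.56 for IRF1, -0.81 and -1.78 for IRF7, -0.57 and -0.79 for IRF3 and 0.20 and 0.06 for IRF2. With 0.1 TPM added, IRF9 (-1.02 and -1.66) and IRF1 (-1.11 and -1.76) were also called in both lines. USP18, SOCS3 and SOCS1 restrain interferon signalling, and their changes were -0.88 and -1.34, -0.93 and -1.36, and -0.61 and -0.48. In all 1 of the 14 tested genes was called lower in RD, where 7.37% of all tested genes were, and 6 in JR1, where 9.05% were, and the list median was -0.67 (RD) and -0.76 (JR1), between those of all tested genes and of the OAS family.

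Of 10 sensor genes of RNA and DNA, which include other proteins that bind double-stranded RNA, 9 were tested and the same 4 were called lower in each line, as were 4.79% of all tested genes. They were the helicases DDX58 (RIG-I), IFIH1 (MDA5) and DHX58 (LGP2) and the DNA sensing adaptor STING1. DDX58 fell in RD from 14.96 to 4.21 TPM and in JR1 from 11.69 to 2.44 TPM. IFIH1 fell from 11.10 to 3.07 TPM and from 11.27 to 1.25 TPM. The changes of DHX58 were -1.59 and -1.97 and those of STING1 -1.15 and -1.49. The call of STING1 in RD was lost relative to the median of the tested genes (-0.88) and without the structural RNA genes (-0.77). EIF2AK2, which encodes PKR, a kinase activated by double-stranded RNA, was not called, at 12.66 and 11.57 TPM in RD and 13.97 and 11.57 TPM in JR1. Changes under the limit were found for ADAR, which edits double-stranded RNA (-0.53 and -0.66), and CGAS, a DNA sensor with a nucleotidyltransferase fold related to that of OAS1 (-0.47 and -0.44). MAVS, the adaptor of the RNA helicases, stood at -0.12 and 0.01, and TLR3 was at most 1.97 TPM in any library. The median of the sensor list was -0.53 (RD) and -0.66 (JR1).

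Of 26 further antiviral interferon-stimulated genes 21 were tested, and all 21 were lower in both lines, as were 75% of tested genes in RD and 68.9% in JR1. The exception was IFI27 in RD when set against the median of the tested genes (0.14). Calls numbered 16 in RD and 21 in JR1, against 7.37% and 9.05% of all tested genes, and the 16 were all called in JR1 too. With the structural RNA genes removed the calls were 14 and 19, against 3.47% and 7.51%. The list median was -1.79 (RD) and -2.14 (JR1). With 1 TPM added, IFIT2 was the lowest gene of the list (-4.29 and -4.15), above OASL and below OAS2. With 0.1 TPM added RSAD2 was lower than IFIT2, at -5.30 (RD) and -5.53 (JR1), against -6.40 and -5.80 for OASL. The smallest changes were those of IFI27 in RD (-0.13), which was at 0.43 TPM in RD shSCR, and of IFIT5 in JR1 (-1.02, or -0.81 relative to the median of the tested genes). This list was written with earlier results of these data known and is not independent evidence of its direction. The minimum is a mean over the 4 libraries, so a gene high only in controls passes it through them and then counts as a fall. MX2, RSAD2 and BST2, under 1 TPM in both depleted libraries, passed through both controls, and IFI27 through JR1 shSCR alone (10.44 TPM). CMPK2 and DDX60 also passed through the controls, with at most 1.04 TPM in the depleted cells. Of the 22 genes of the list in the promoter table, 15 held GAAANNGAAA and 8 held GAAANGAAA, against the 3.57% and 3.12% of all promoters given above. Among promoters of tested genes the shares were 2.79% and 2.54%. Listed genes entered with 1 promoter each, while these shares count every promoter of a gene. MX1, EPSTI1 and XAF1 held a motif but were not among the tested genes. GAAANNGAAA was held by 3 of 5 sensor promoters, 1 of 11 signalling promoters and 0 of 3 promoters of the 2-5A pathway. For GAAANGAAA these were 0 of 5, 0 of 11 and 0 of 3.

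Within 250 kb on either side of the OAS1-OAS3-OAS2 locus and of OASL, 8 other protein-coding genes are described here. As deposited, the TPM of all 8 neighbours were lower with shSKP2 in RD and in JR1, as were 75% and 68.9% of all tested genes, at medians of -0.50 and -0.55, and 5 in RD and 7 in JR1 remained below 0 after the structural RNA genes were removed. None of the 8 was called in RD (7.37% of all tested genes were) and P2RX4, an ATP-gated ion channel gene near OASL, was called in JR1 (9.05% were), from 10.76 to 3.86 TPM. The P2RX4 change was -0.91 (RD) and -1.27 (JR1). These calls depended on the TPM added. With 0.1 TPM, P2RX4 (-1.07) and IQCD (-1.38) were called in RD, and IQCD (-1.02) was called in JR1 as well. DTX1, the tested gene nearest to OAS2, went in RD from 3.45 to 2.12 TPM and in JR1 from 0.48 to 0.36 TPM. The other neighbours (DDX54, RITA1, IQCD, TPCN1, SPPL3 and CAMKK2) had changes between -0.77 and -0.28 in RD and between -0.78 and -0.04 in JR1.

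The genes with the most similar pattern to each member were found by the Euclidean distance of log2(TPM + 1), centred on the gene's mean, over the 4 libraries. For OAS1 they were RP2 (0.07), CCNG1 (0.11) and B4GALT1 (0.12). CCNG1, a cyclin gene known as a p53 target, went in RD from 26.18 to 5.94 TPM and in JR1 from 23.92 to 4.80 TPM. For OAS2 they were the antiviral genes RSAD2 (0.50) and ISG15 (0.61) and SARAF (0.62), a regulator of store-operated calcium entry. SARAF went in RD from 203.49 to 29.48 TPM and in JR1 from 196.05 to 20.75 TPM. For OAS3 they were CHEK2 (0.21), a checkpoint kinase gene, SAMHD1 (0.22), a dNTP hydrolase gene, and RECQL (0.24), a DNA helicase gene. CHEK2 went in RD from 18.77 to 5.82 TPM and in JR1 from 22.43 to 3.77 TPM. For OASL they were the small nucleolar RNA SNORA44 (0.14), the chemokine gene CCL5 (0.90) and IFIT2 (1.3). SNORA44 was at 49.41 TPM in RD shSCR and 30.20 TPM in JR1 shSCR and was listed at 0 with shSKP2 in both lines. Between members the distance was smallest for OAS1 and OAS3 (0.43) and largest for OAS3 and OASL (3.78). These are not set against the distances of the nearest genes, which were picked as the smallest over all tested genes. The nearest genes depended on the TPM added. With 0.1 TPM they were CREG2, B4GALT1 and CCNG1 for OAS1, IFIT3, IFIT2 and IL6 for OAS2, ACVRL1, RFK and CHEK2 for OAS3, and RSAD2, CCL5 and SPARCL1 for OASL. SNORA44 is then no longer near OASL. Over 4 libraries such a likeness is a description only.

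**Figure D3:**
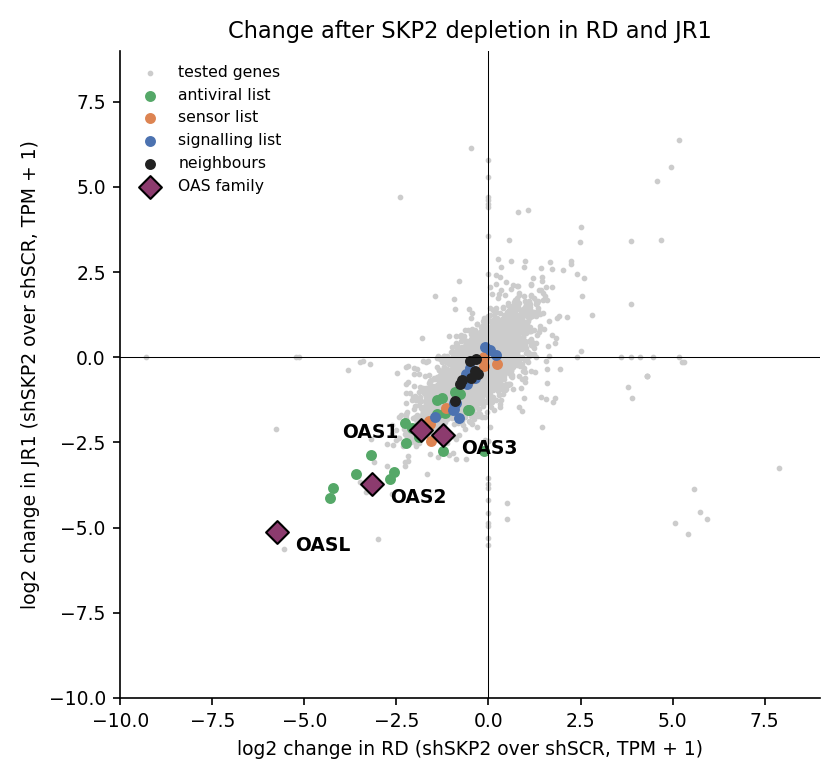
Log2 change (shSKP2 over shSCR, TPM + 1) in RD against that in JR1 for the 12985 tested genes (grey), the gene lists (colours) and the OAS family (diamonds), 1 point per gene. OASL lies near the lower left end at -5.75 and -5.14, OAS2 at -3.17 and -3.73, and OAS1 and OAS3 nearer to the other tested genes.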

How the data were processed

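Gene expression was measured by RNA-seq in 4 libraries. The authors prepared directional poly-A libraries, read them in pairs of 150 bases, aligned to GRCh38 with STAR 2.7.9a and estimated TPM with RSEM 1.3.2 (versions per the labels). The deposited TPM have 2 decimals and were used as they stand. Their gene annotation and strand setting are not given in the sources used here. Groups were taken from the sample titles.

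Changes were computed as log2 of TPM + 1 ratios. Genes averaging 1 TPM or more were tested, and a limit of 1 (log2) defined a call. Alternatives were 0.1 TPM added in place of 1, centring on the median of tested genes, removal of 620 short structural RNA genes (7SL, 7SK, small nuclear, nucleolar and Cajal body, Y and vault RNAs, RMRP and RPPH1) with rescaling, no filter, a mean of at least 5 TPM, a limit of 1.5-fold, and the family without OASL. No model was fitted: each group has 1 library, and a fit with line as a block, which would leave 1 residual degree of freedom, was not run because the members were picked on this contrast. The nearest genes with 0.1 TPM added and the calls over the genes tested on both scales were added after seeing the data.

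The members and the gene lists were chosen with earlier results of these data known. The named genes are the members, SKP2, the 3 genes of the 2-5A pathway, tested genes of the signalling, sensor and neighbour lists, the extremes of the antiviral list and the 3 genes nearest to each member in pattern. Neighbours were read from the deposited coordinates, with RefSeq for coding genes. Some genes of these lists are not reported here and enter no list count, median or figure of a list. The calculations were tested on simulated data. Python 3.11.15, numpy 2.4.6, pandas 2.3.3 and matplotlib 3.10.9 were used.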

Additional observations from a re-analysis of the deposited data

Results flagged for a closer look

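Among the named genes, with the cell type markers left out, 3 had changes of opposite sign in RD and JR1, none of which reached the limit. The difference was not tested. The change in RD minus the change in JR1 was -0.40 for IFNAR1, -0.13 for MAVS and 0.43 for TLR3. Set against the median of tested genes, IFNAR1 (0.17 in RD and 0.51 in JR1), MAVS (0.15 and 0.22) and TLR3 (0.49 and 0.01) were each on the same side in both lines, but TLR3 (0.63 and -0.05) was not once the structural RNA genes were removed. The OAS family had no member with opposite directions.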

How the results depend on the processing

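With 1 library per group there is no replicate spread to set a shift against, and depth and counting error are unknown. The median change of the OAS family, -2.50 in RD and -3.00 in JR1, was -2.85 and -3.43 with 0.1 TPM added, -2.23 and -2.79 after centring, -2.34 and -3.06 without structural RNA genes and -1.83 and -2.28 without OASL. The median of RD over JR1 in shSCR, -0.19, was -0.42, -0.49 and -0.38 under the last 3 of these, and that in shSKP2, 0.23, was 0.30, 0.059, 0.15 and 0.29 under all 4. Of the named changes, 3 lost their call after centring and after removal of the structural RNA genes. They were those of OAS3 and STING1 in RD and of IFIT5 in JR1. With 0.1 TPM added 5 gained one, those of IRF9, IRF1, P2RX4 and IQCD in RD and of IQCD in JR1. None of the called changes turned its direction. Falls over all tested genes (957 in RD and 1175 in JR1) were 458 and 710 after centring and 3011 and 3041 with a limit of 1.5-fold, and 528 in RD without structural RNA genes. Rises (140 and 231) were 279 and 378 with 0.1 TPM added, 272 and 388 after centring, 677 and 747 without structural RNA genes, 87 and 143 with a mean of at least 5 TPM and 416 and 689 with a limit of 1.5-fold. The lines repeat the contrast, and a fit with line as a block would leave 1 residual degree of freedom. It was not run, since the members were picked on this contrast and carry no test.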
